A study of Mus musculus with 9 samples.

Results

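Saa3, Lcn2, Hp, Slpi and Cp encode secreted acute-phase and antimicrobial proteins, and their RNA was measured in bone marrow-derived macrophages (Mϕs) left in growth factor alone or treated with IL-4 or IL-6. They were chosen by gene symbol as 5 of the 53379 genes in the deposited table, and each symbol belonged to 1 row. The choice was made with their values in all 3 comparisons known, so those values are described here without a p-value. All 5 passed the filter on low values, a mean of at least 0.5 FPKM over the 9 libraries, as did 12824 genes in total.

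Bone marrow cells of wild-type C57BL/6 mice were first kept for 3 days in 10 ng/ml CSF-1, under which marrow progenitors become Mϕs. Control cells stayed in 10 ng/ml CSF-1 alone for another 4 days. IL-4-treated Mϕs received CSF-1 with 10 ng/ml IL-4, and IL-6-treated Mϕs received CSF-1 with 100 ng/ml IL-6, as each library's treatment label states. The protocol text of the labels misprints the IL-6 dose and names the IL-4 group IL-5, and the study's methods and legends differ on doses and on the time. Each condition had 3 libraries of polyadenylated RNA, numbered #1 to #3, which were read as 3 mice, and all conditions shared CSF-1. Values are FPKM, fragments per kilobase of exon scaled to the library's total. The exon length covers all annotated exons of a gene, from 1180 bases for Slpi to 9566 for Cp. Levels of different genes therefore depend on that annotation.

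Acute-phase proteins are plasma proteins that the liver makes in larger amounts during infection or injury, and IL-6 is the cytokine best known for driving their synthesis there, through STAT3 and C/EBP factors. Several are also made by myeloid cells. Neutrophil precursors in the marrow store lipocalin-2, haptoglobin and SLPI, and Mϕs make serum amyloid A3 on activation. IL-4 acts through STAT6 and drives Mϕs to an alternatively activated state.

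By role, Saa3 encodes an apolipoprotein-like acute-phase protein that is made outside the liver. Lcn2 encodes the lipocalin that binds bacterial siderophores and so withholds iron from bacteria. Hp encodes haptoglobin, which binds free haemoglobin for uptake through CD163. Slpi encodes an inhibitor of neutrophil elastase and cathepsin G that also kills bacteria. Cp encodes ceruloplasmin, a copper-carrying ferroxidase that loads iron onto transferrin once ferroportin has exported it.

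In GENCODE M21 coordinates on GRCm38, Saa3 (ENSMUSG00000040026.8) lies on the minus strand of chromosome 7 from 46711998 to 46715700. Lcn2 (ENSMUSG00000026822.14) lies on the minus strand of chromosome 2 from 32384633 to 32388252. Slpi (ENSMUSG00000017002.14) is on the same chromosome and strand, from 164354070 to 164389095. Hp (ENSMUSG00000031722.10) runs on the minus strand of chromosome 8 from 109575128 to 109579172, and Cp (ENSMUSG00000003617.16) on the plus strand of chromosome 3 from 19957054 to 20009145. Cp overlaps Hps3 on the opposite strand, and the study does not state whether fragments were counted by strand, so the part of Cp's value that lies in the overlap is uncertain. Slpi contains the microRNA gene Mir7678. Of 2602 distinct stretches of 50 bases in Saa3 transcripts, 93 (3.57%) also occur in transcripts of other genes, 9 of them in Saa1, and the other 4 members have no such stretch.

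The promoters of the genes are shown because the genes respond to the same pair of cytokines in different ways. RefSeq sequence on GRCm38.p6 was used, from 250 bases before to 50 after the start site, written 5′ to 3′ on the gene's strand. Capitals mark letters that match a STAT site (TTC and GAA with 3 or 4 bases between them), the C/EBP core (TTNNGNAA), a loose NF-κB pattern (GGG and CC with 5 bases between them) or the IL-6 response element of acute-phase genes (CTGGGAA) on either strand. Hp had no entry. Cp had entries for 2 start sites, of which the downstream one is shown. The Cp gene start given above, 19957054, is the start site of the upstream entry. The Slpi window lies inside the gene as located above, whose 5′ end is at 164389095.
Saa3, chr7:46715627-46715926, minus strand: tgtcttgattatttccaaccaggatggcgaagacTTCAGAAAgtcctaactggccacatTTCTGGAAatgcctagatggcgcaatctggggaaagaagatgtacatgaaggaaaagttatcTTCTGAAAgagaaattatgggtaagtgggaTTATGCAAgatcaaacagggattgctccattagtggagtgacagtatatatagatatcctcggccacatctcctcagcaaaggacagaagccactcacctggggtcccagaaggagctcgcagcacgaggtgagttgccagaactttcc
Lcn2, chr2:32387690-32387989, minus strand: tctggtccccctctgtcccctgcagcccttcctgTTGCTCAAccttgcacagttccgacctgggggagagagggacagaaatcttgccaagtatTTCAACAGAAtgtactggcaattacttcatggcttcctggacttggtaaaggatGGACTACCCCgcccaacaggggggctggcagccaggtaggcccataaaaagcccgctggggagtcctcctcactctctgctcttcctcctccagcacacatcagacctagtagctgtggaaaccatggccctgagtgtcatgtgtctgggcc
Slpi, chr2:164356458-164356757, minus strand: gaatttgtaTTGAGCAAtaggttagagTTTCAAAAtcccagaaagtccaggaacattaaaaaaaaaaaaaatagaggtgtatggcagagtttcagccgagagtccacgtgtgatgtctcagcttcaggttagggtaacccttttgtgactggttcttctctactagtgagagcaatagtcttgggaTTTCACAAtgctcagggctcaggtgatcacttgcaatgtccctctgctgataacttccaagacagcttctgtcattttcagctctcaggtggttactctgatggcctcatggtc
Cp, chr3:19956999-19957298, plus strand: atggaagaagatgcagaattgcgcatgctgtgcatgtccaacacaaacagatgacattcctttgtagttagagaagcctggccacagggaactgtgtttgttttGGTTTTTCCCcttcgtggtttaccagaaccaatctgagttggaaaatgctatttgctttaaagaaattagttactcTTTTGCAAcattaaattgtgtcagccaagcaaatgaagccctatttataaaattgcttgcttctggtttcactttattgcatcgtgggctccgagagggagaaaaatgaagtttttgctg

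The Saa3 promoter holds 4 matches to the C/EBP core, whose first bases lie at −216, −191, −129 and −99 from the start site. A single match or more occurs in 40.7% of the 32851 promoters, and 4 or more in 1.16%. Slpi holds 3 such matches, as 4.29% of promoters do at that number or above. Lcn2 and Cp each hold 1. Lcn2 has the STAT pattern with a spacer of 4 bases, the spacing that STAT6 prefers, from −156 to −147 (6.95% of promoters). Lcn2 and Cp each hold 1 match to the loose NF-κB pattern, which 50.8% of promoters share. The STAT pattern with a spacer of 3 bases (8.3% of promoters) and the IL-6 response element (11.1%) have no match in these windows. Cp holds TATAAA on both strands just upstream of its start, its 2 matches overlapping each other, and Slpi holds the core ACGTG on both strands, also overlapping. Shares given for single patterns count promoters with at least 1 match on either strand anywhere in the window, 13.6% for TATAAA and 19.6% for ACGTG. These matches describe letters and not binding.

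The libraries hold 29988160 to 39909571 fragments. They divide by transcripts of Paneth and goblet cells, secretory cells of the gut, whose 19 marker genes sum to 51.2 to 78.8 FPKM in the 3 control libraries and IL-4 #1 and to 0.0139 to 0.175 FPKM in IL-4 #2, IL-4 #3 and the 3 IL-6 libraries. Some skeletal muscle transcripts divide the same libraries the other way. Myl1 and Myh1 were at 0 in the former 4 libraries and at 0.675 to 1.27 and 0.302 to 0.511 FPKM in the latter 5. The list as a whole did not divide them. Its 18 genes summed to 4.07 to 13.75 FPKM in the former and 13.1 to 20.2 in the latter, which overlap. Of 6 muscle markers tested, 1 was called lower and none higher with IL-6 against control. No set holds both control and IL-6 libraries, so the set and the IL-6 treatment cannot be told apart. Ratios within the sets are given for the members. For other genes, some calls and counts that changed with the set in the fit are stated. IL-4 #3 also stands apart with a summed FPKM of 441600 against 322900 to 371700 in the others. All 12 Mϕ markers passed the filter, and Adgre1, which encodes F4/80, was at 393 to 523 FPKM in control, 105.5 to 254 in IL-4-treated and 383 to 427 in IL-6-treated Mϕs. Summed Mϕ markers were at 17250 to 19720, 6844 to 8242 and 20940 to 21980 FPKM. As a check of the treatments, Socs3, a target of STAT3, was at 1.61 to 2.91 FPKM in control, 1.76 to 3.23 in IL-4-treated and 74.7 to 85.5 in IL-6-treated Mϕs, a log2 fold change of 5.12 ± 0.26 (SE) for IL-6 against control (limma adjusted p = 3.02e-05).

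**Figure D1:**
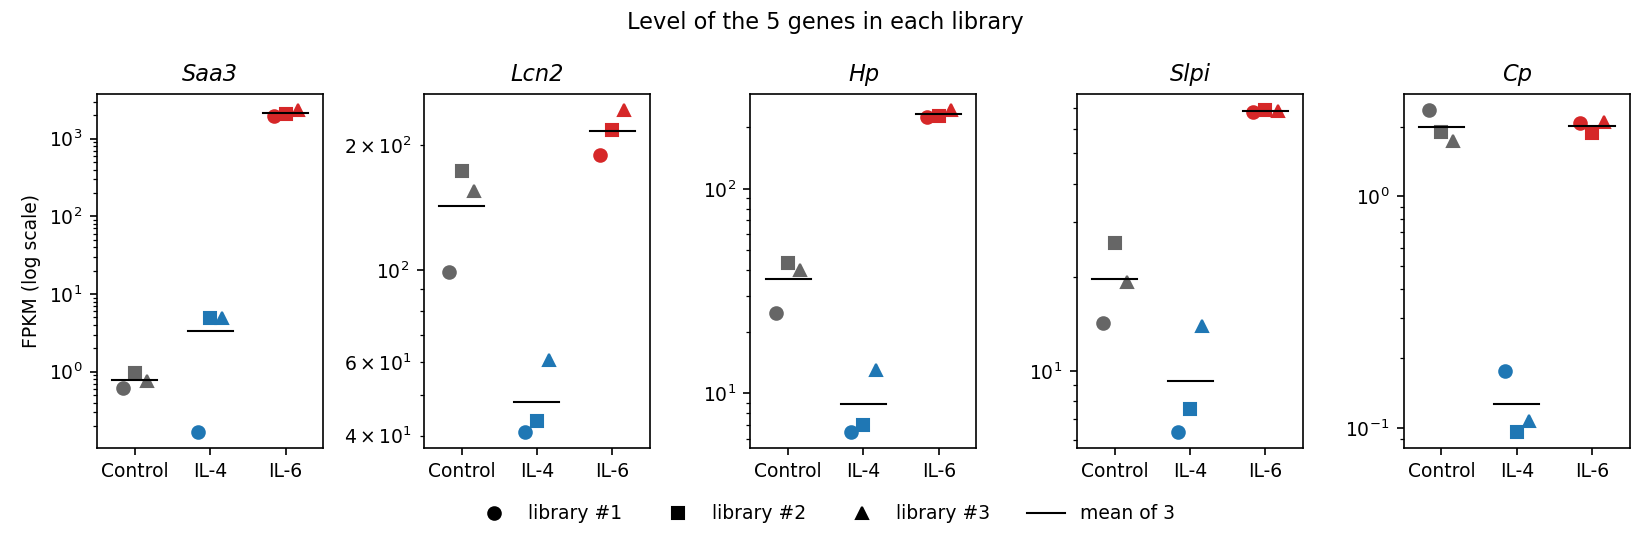
FPKM of Saa3, Lcn2, Hp, Slpi and Cp in each of the 9 libraries, on a separate log axis for each gene, with the marker shape giving the library number and the line the mean of 3 libraries. Saa3 spans from 0.168 FPKM in IL-4 #1 to 2371 in IL-6 #3, and Cp is between 1.74 and 2.37 FPKM in control and IL-6-treated Mϕs and at 0.177 FPKM or less after IL-4.

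Saa3 differed most widely between IL-6-treated Mϕs and the other conditions. In control Mϕs it was at 0.616, 0.960 and 0.766 FPKM, from 56, 75 and 70 fragments. The IL-6 libraries had 1946, 2057 and 2371 FPKM. Saa3 ranked between 10825 and 12280 by FPKM among all genes in the control libraries and at 15, 16 and 15 in the IL-6 libraries, where it took 0.585% to 0.712% of all gene fragments.

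After IL-4, Saa3 was at 0.168 FPKM in IL-4 #1 (15 fragments) and at 4.91 and 4.93 FPKM in IL-4 #2 and #3 (388 and 513 fragments). IL-4 #1 thus lay below every control library and the other pair above every control library, so the IL-4 and control groups overlapped, while the IL-6 libraries overlapped neither. Means were 0.780 ± 0.173, 3.34 ± 2.75 and 2125 ± 221 FPKM (SD, n = 3) in the control, IL-4 and IL-6 libraries. The IL-6 mean was 2723 times that of control, a log2 fold change of 11.25 ± 1.00 (SE), and the IL-4 mean 4.28 times (1.12 ± 1.00).

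The order of control and IL-4 for Saa3 followed the sets of libraries. Within the set rich in gut transcripts, the control mean was 4.63 times IL-4 #1. In the other set, the IL-6 mean was 432 times the mean of IL-4 #2 and #3, which were at 6.31 times the control mean. A fit that included the set, which compares IL-4 #1 alone with control, gave −1.69 for IL-4, the opposite sign. For IL-6 it gave 7.02 ± 0.30, and without IL-4 #1 the IL-4 value was 2.53 ± 0.18. The mean of IL-4 #2 and #3 equalled 0.232% of the IL-6 mean, and IL-4 #1 0.00793%.

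Haptoglobin RNA moved both ways. Hp was at 24.7, 43.4 and 40.1 FPKM in control Mϕs. After IL-4 it was at 6.49, 6.97 and 13.0 FPKM, and after IL-6 at 224, 228 and 244. The 3 conditions did not overlap in any pair, and IL-6-treated Mϕs were highest. Relative to the control mean of 36.1 ± 9.98 FPKM (SD, n = 3), the IL-6 mean of 232 ± 10.6 was 6.43 times as high (log2 fold change 2.72 ± 0.30, SE). The control mean was in turn 4.09 times the IL-4 mean of 8.83 ± 3.66 (−2.05 ± 0.30). Between the cytokines the ratio of means was 26.3, and it was 23.2 within the set of libraries poor in gut transcripts. The control mean was 5.57 times IL-4 #1 within the set rich in them.

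Slpi had the same order of conditions as Hp, with IL-6 highest and IL-4 lowest. Control libraries were at 14.3, 25.7 and 19.3 FPKM, IL-4 libraries at 6.37, 7.52 and 14.0 FPKM and IL-6 libraries at 67.7, 69.2 and 68.7 FPKM. No pair of conditions overlapped, though the highest IL-4 library, #3, lay just under the lowest control library. The means were 19.8 ± 5.73, 9.30 ± 4.11 and 68.5 ± 0.742 FPKM (SD, n = 3). IL-6-treated Mϕs had 3.47 times the control mean (log2 fold change 1.83 ± 0.31, SE), and the control mean was 2.13 times the IL-4 mean (−1.13 ± 0.31). The ratio of IL-6 to IL-4 was 7.37, or 6.37 within the set poor in gut transcripts.

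Lcn2 was the most abundant of the 5 in control Mϕs, at 99.0, 174 and 155 FPKM. It was at 40.9, 43.3 and 60.9 FPKM after IL-4 and at 189, 218 and 243 after IL-6. Conditions again did not overlap, but the gap between the highest control library and the lowest IL-6 library was small beside the spread within each. The mean of 217 ± 27.2 FPKM after IL-6 was 1.52 times the control mean of 142.5 ± 38.9 (SD, n = 3), a log2 fold change of 0.64 ± 0.24 (SE) that did not pass the threshold for a call. The mean after IL-4 was 48.3 ± 10.9 FPKM, and the control mean was 2.95 times that (−1.54 ± 0.24), or 3.49 times IL-4 #1 within the set rich in gut transcripts. The ratio of IL-6 to IL-4 was 4.48, and 4.16 within the other set.

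Cp differed between IL-4 and the other conditions alone. Control libraries were at 2.37, 1.89 and 1.74 FPKM, from 791, 542 and 583 fragments, and IL-6 libraries at 2.07, 1.88 and 2.09 FPKM. These overlapped, with a ratio of means of 1.01 and a log2 fold change of 0.02 ± 0.22 (SE). IL-4 libraries were at 0.177, 0.0966 and 0.107 FPKM, from 58, 28 and 41 fragments, all below the rest. The control mean of 2.00 ± 0.330 FPKM (SD, n = 3) was 15.7 times the IL-4 mean of 0.127 ± 0.0439, with a log2 fold change of −3.21 ± 0.22 that the added 0.1 FPKM makes smaller. The control mean was 11.3 times IL-4 #1 in one set, and the IL-6 mean was 19.7 times that of IL-4 #2 and #3 in the other.

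By FPKM, which depends on the exon length used, the order in control Mϕs was Lcn2, Hp, Slpi, Cp and Saa3. In IL-6-treated Mϕs it was Saa3, Hp, Lcn2, Slpi and Cp, where the ranges of Hp and Lcn2 overlapped. By fragments Lcn2 lay above Hp there, at 17300 to 19611 against 11957 to 12541. After IL-4 the order by mean FPKM was Lcn2, Slpi, Hp, Saa3 and Cp, where the ranges of Slpi and Hp overlapped.

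**Figure D2:**
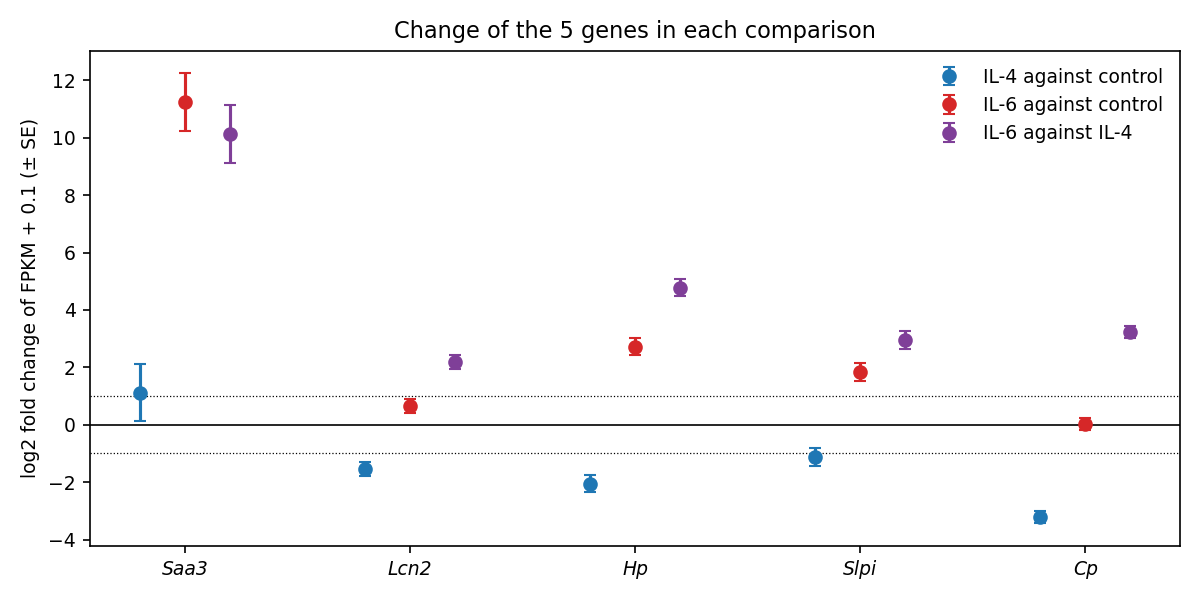
Log2 fold change of FPKM + 0.1 for the 5 genes in each comparison, with bars of 1 SE from the limma fit over all 9 libraries and dotted lines at the threshold of 1 in size. For IL-6 against IL-4 the 5 values run from 2.18 for Lcn2 to 10.13 for Saa3, while for IL-4 against control Saa3 is at 1.12 and the others lie between −3.21 and −1.13.

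A gene counted as called where its limma adjusted p over all 12824 genes was under 0.05 and its log2 fold change was 1 or more in either direction. For IL-4 against control, 4 of the 5 members were called and all 4 were lower, where 8.89% of all genes tested were called lower and 13.9% in either direction. For IL-6 against control, Saa3, Hp and Slpi were called higher, beside 3.49% of all genes called higher and 5.38% in either direction. For IL-6 against IL-4, all 5 were called higher, beside 13.6% of all genes called higher and 20.4% in either direction. The log2 fold changes between the cytokines were 10.13 ± 1.00 (SE) for Saa3, 4.77 ± 0.30 for Hp, 3.23 ± 0.22 for Cp, 2.95 ± 0.31 for Slpi and 2.18 ± 0.24 for Lcn2. Members whose libraries did not overlap numbered 4 lower for IL-4 (26.8% of all genes), 4 higher for IL-6 (20.0%) and 5 higher between the cytokines (36.3%). The members were chosen on these comparisons, so nothing follows from their counts. The median log2 fold change of the members was −1.54, 1.83 and 3.23 in the 3 comparisons, and that of all genes −0.20, −0.004 and 0.22.

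Once the set was included in the fit, the IL-4 values rested on IL-4 #1 alone, and all 5 members were lower. Saa3 alone was called for IL-6, where Hp had 2.17 ± 0.51 (SE) and Slpi 1.15 ± 0.50. The Slpi call for IL-4 was lost in 11 of the alternative fits, among them rescaling of each library by its median ratio, which gave −0.93 ± 0.39. It was also lost without control #2 or #3, IL-4 #1 or #2, or any 1 IL-6 library, with values between −1.13 and −0.90. Saa3 was called for IL-4 without IL-4 #1, as higher.

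The lists of other genes below were chosen with earlier results of these data known. Among 38 other acute-phase genes, 11 passed the filter. The liver-type proteins were at or near 0: Crp, Apcs, Fgb, Fgg and Serpina1a were listed at 0 in all 9 libraries, as were 12 of the 38. Saa1, which encodes a liver form of serum amyloid A, had no fragment in the control and IL-4 libraries and 11, 7 and 10 in the IL-6 libraries, against 175008 to 189793 for Saa3. Hepatocyte markers were at summed levels of 0.224 to 2.95 FPKM over all libraries, with Alb, Ttr, Tat and Serpina1a at 0.

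Of the 11 acute-phase genes tested, 7 rose with IL-6 against control and none fell, beside 3.49% of all genes called higher. C4b and Cfb passed the filter through the IL-6 libraries alone, so their place among the 11 is not independent of their rise, and of the other 9 genes 5 rose. C4b, which encodes complement component 4, was at 0.223 to 0.367 FPKM in control and 6.75 to 8.91 in IL-6-treated Mϕs (log2 fold change 4.25 ± 0.34, SE, limma adjusted p = 0.000306). Cfb, which encodes factor B of the alternative pathway, was at 0.106 to 0.304 and 3.84 to 5.98 FPKM (4.07 ± 0.32, adjusted p = 0.000241). C3, the central complement component, was at 34.7 to 39.3 and 181 to 189 FPKM (2.32 ± 0.37, adjusted p = 0.00734). F5, which encodes coagulation factor V and shares its domain plan with ceruloplasmin, rose from 1.26 to 2.27 FPKM to between 8.24 and 10.5 FPKM (2.44 ± 0.37, adjusted p = 0.00578). The other 3 were Lrg1, Cd14 and Lbp, the latter encoding the plasma protein that hands lipopolysaccharide to CD14. The median was 1.27 over the 11, 1.17 over the other 9 and −0.004 over all genes. Calls for F5, Lrg1, Lbp and Cd14 were lost when the fit included the set, which left 3, and Cd14 also without any 1 control or IL-6 library.

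With IL-4 against control, 3 of the 11 fell, again Cd14, Lbp and Lrg1, and none rose, beside 8.89% of all genes called lower. Cd14 was at 109 to 141 FPKM in control, 15.0 to 34.1 in IL-4-treated and 288 to 316 in IL-6-treated Mϕs, which is the order that Hp and Slpi also showed. Its log2 fold change for IL-4 was −2.53 ± 0.27 (SE, limma adjusted p = 0.000366). Lbp had −2.33 ± 0.18 (adjusted p = 5.62e-05) and Lrg1, a secreted glycoprotein of neutrophils and liver, −2.13 ± 0.26 (adjusted p = 0.000736). C3 was at 12.7 to 42.7 FPKM after IL-4 and did not pass the test (−0.56 ± 0.37, adjusted p = 0.306). For IL-6 against IL-4 the same number, 7, rose and none fell, beside 13.6% of all genes called higher. C4b and Cfb, which passed the filter through the IL-6 libraries alone, were again among the 7.

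**Figure D3:**
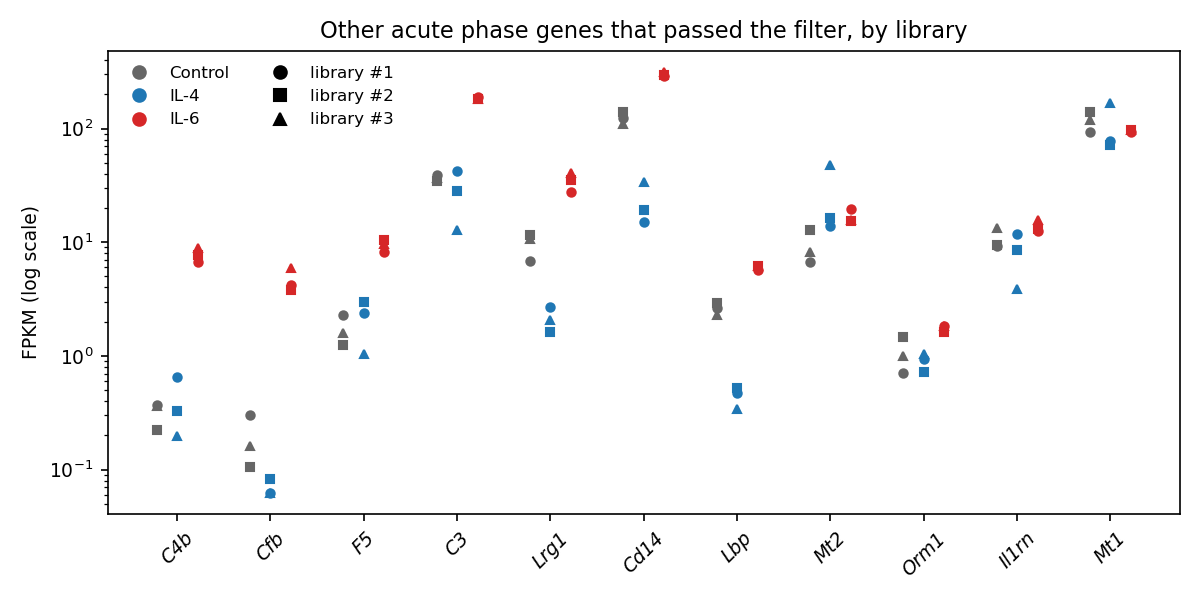
FPKM on a log axis of the 11 other acute-phase genes that passed the filter, by library, with colour for the condition and shape for the library number, ordered by the log2 fold change for IL-6 against control. C4b, Cfb, F5, C3, Lrg1, Cd14 and Lbp have all IL-6 libraries above all control libraries, as do Orm1 and Mt2, which were not called. Lbp, Lrg1 and Cd14 have all IL-4 libraries below all control libraries, as does Cfb, which was not called for IL-4.

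Secreted antimicrobial proteins of granules and Mϕs fell in the main with IL-4. Of 16 tested, 9 of which are also on the list of granulocyte markers, 12 fell and 1 rose with IL-4 against control, 1 rose and 2 fell with IL-6 against control, and 11 rose and 1 fell for IL-6 against IL-4. Of all genes, 8.89% were called lower with IL-4, 5.38% in either direction with IL-6 and 13.6% higher between the cytokines. When the fit included the set, 4 of the 16 fell with IL-4 and the 3 calls for IL-6 against control were lost, while 12 rose between the cytokines. Elane, neutrophil elastase and a target of SLPI, was at 35.4 to 93.3 FPKM in control, 8.05 to 12.2 in IL-4-treated and 36.8 to 67.2 in IL-6-treated Mϕs (−2.69 ± 0.38 for IL-4, SE, limma adjusted p = 0.00153). Chil3, which encodes the chitinase-like protein Ym1, was the one that rose with IL-4, from 246 to 395 FPKM in control to between 13970 and 17930 FPKM (5.59 ± 0.20, adjusted p = 2.22e-06). Its rise with IL-6, to between 601 and 705 FPKM, was at the threshold (1.01 ± 0.20, adjusted p = 0.018) and was lost with the set as a term. The 2 that fell with IL-6 were Reg3b and Reg3g, intestinal lectins that belong to the Paneth and goblet list as well. They were listed at 0 in all 5 libraries poor in gut transcripts. Both passed the filter through the control libraries and IL-4 #1 alone, so their place on the list is not independent of these falls. The same holds for Reg3b among the 12 that fell with IL-4, a call lost with the library number as a block (adjusted p = 0.052).

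In the families of the members, few genes were expressed. Of 20 listed genes with a WAP domain like that of SLPI, 19 were in the table and Wfdc17 and Wfdc21 passed the filter. Wfdc17 was at 608.5 to 835 FPKM in control, 114.5 to 182 in IL-4-treated and 1126 to 1412 in IL-6-treated Mϕs, and fell with IL-4 (−2.36 ± 0.20, SE, limma adjusted p = 0.00012). Its IL-6 value of 0.80 ± 0.20 was under the size threshold. Wfdc21 was at 34.4 to 65.2, 17.3 to 31.5 and 121 to 141 FPKM, and both of its calls against control (−1.23 ± 0.29, adjusted p = 0.017, and 1.38 ± 0.29, adjusted p = 0.0258) were lost with the set as a term. Among 19 lipocalins, 3 passed. Rbp4, the carrier of retinol, rose with IL-4 from at most 0.0221 FPKM to between 0.947 and 3.17 FPKM, though it passed the filter through the IL-4 libraries alone. C8g, which encodes a chain of complement component 8, fell with IL-4 (−1.22 ± 0.23, adjusted p = 0.00542), a call lost when the fit included the set. The ferroxidases Heph and Hephl1 were under the filter.

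The proteins' receptors and partners were then compared. Of 19 tested, 2 rose and 8 fell with IL-4 against control, and 3 rose and 1 fell with IL-6. The shares of all genes called in either direction were 13.9% for IL-4 and 5.38% for IL-6. Cd163, the receptor for haptoglobin bound to haemoglobin, fell with IL-4 as Hp did, from 3.17 to 4.37 FPKM to between 0.298 and 1.07 FPKM (−2.38 ± 0.37, SE, limma adjusted p = 0.00236). It was at 3.22 to 4.41 FPKM after IL-6, with a log2 fold change of 0.15 ± 0.37 (adjusted p = 0.849). Slc40a1, which encodes the iron exporter ferroportin, fell with IL-4 from 117.5 to 159 FPKM to between 4.33 and 17.5 FPKM (−3.87 ± 0.42, adjusted p = 0.000398). After IL-6 it was at 44.3 to 44.8 FPKM and did not pass the test (−1.58 ± 0.42, adjusted p = 0.0598). Slc22a17, the proposed receptor of lipocalin-2, was under the filter at 0.183 to 0.473 FPKM.

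Receptors reported for serum amyloid A moved in both directions. Tlr2 was at 44.6 to 55.0 FPKM in control, 2.47 to 3.29 in IL-4-treated and 104 to 118 in IL-6-treated Mϕs (−4.10 ± 0.14 and 1.14 ± 0.14, SE, limma adjusted p = 1.94e-06 and 0.00206). Fpr2 was at 15.2 to 24.1, 5.75 to 7.50 and 72.3 to 82.6 FPKM (−1.56 ± 0.18 and 1.94 ± 0.18, adjusted p = 0.000571 and 0.000583), and Fpr1 was called in the same directions, its IL-6 call being lost with the set as a term. Cd36, a scavenger receptor, did the reverse, at 266.5 to 389 FPKM in control, 628 to 1107 after IL-4 and 24.2 to 29.3 after IL-6 (1.54 ± 0.24 and −3.50 ± 0.24, adjusted p = 0.00256 and 0.000171). Tlr4, Scarb1 and P2rx7 were not called against control. Of SLPI's other partners, Anxa2 rose with IL-4 (1.51 ± 0.24, adjusted p = 0.00275), a call lost with the set as a term, Ctsg, Plscr1 and Grn were not called against control, and Mmp9, which binds lipocalin-2, fell with IL-4 (−1.80 ± 0.24, adjusted p = 0.00103). Hmox1, Lrp1 and Ftl1 were not called. Fth1 was called lower for IL-4 (−1.10 ± 0.32, adjusted p = 0.0365), a call lost without any 1 of 7 libraries.

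Among 26 genes of IL-6 and IL-4 signaling, 11 rose and none fell with IL-6, and 4 rose and 3 fell with IL-4. Of all genes, 3.49% were called higher with IL-6 and 13.9% in either direction with IL-4. Hif1a, which encodes the oxygen-regulated factor HIF-1α, had 2.60 ± 0.52 for IL-6 (SE, limma adjusted p = 0.0204), and Il4ra 1.81 ± 0.14 (adjusted p = 0.000215). Nfkbiz, whose product IκBζ acts at the Lcn2 gene, fell with IL-4 (−3.03 ± 0.25, adjusted p = 9.94e-05) and did not pass the test for IL-6 (0.86 ± 0.25, adjusted p = 0.0778). Socs1, a target of STAT6, rose with IL-4 from at most 1.45 FPKM to between 21.3 and 31.2 FPKM (4.20 ± 0.18, adjusted p = 3.36e-06). When the fit included the set, 4 of the 26 rose with IL-6, and 2 rose and 1 fell with IL-4. The Hif1a call was lost with the set as a term and without any 1 of 5 libraries.

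Granulocyte genes also differed between the conditions. Of 24 granulocyte markers, 18 fell and 1 rose with IL-4, 3 rose and none fell with IL-6, and 22 rose and 1 fell for IL-6 against IL-4. The shares of all genes were 8.89% lower with IL-4, 3.49% higher with IL-6 and 13.6% higher between the cytokines. Lipg was the 1 marker that rose with IL-4 and the 1 that fell between the cytokines. It passed the filter through the IL-4 libraries alone, so its place on the list is not independent of these calls. Of the other 23 markers, 18 fell and none rose with IL-4. When the fit included the set, 9 fell with IL-4 and 1 rose with IL-6, and with IL-4 #3 left out 17 fell with IL-4. Their summed FPKM was 5265 to 9172 in control, 2330 to 4239 in IL-4-treated and 8491 to 11760 in IL-6-treated Mϕs. No marker was at 0 in all libraries, and the neutrophil surface marker Ly6g was at 2.24 to 10.4 FPKM over the 9. The 3 that rose with IL-6 were Stfa2l1, Fcnb and Mmp8, 2 of them also with the library number as a block. Mmp8, neutrophil collagenase, was at 64.7 to 77.3 FPKM in control, 17.3 to 34.5 after IL-4 and 177 to 197 after IL-6. In such cultures fewer cells of a type and less RNA per cell cannot be told apart, and the part of granulocytic cells in the levels of Lcn2, Hp and Slpi was not tested. Of 8 epithelial markers Cdh1 alone passed the filter, at 0.438 to 0.604 FPKM in control, 5.07 to 10.4 after IL-4 and 0.307 to 0.797 after IL-6. The others were at 0.830 FPKM or less in every library, and Epcam was at 0.559 to 0.687 FPKM in control, 0.0971 to 0.473 after IL-4 and 0.0422 to 0.120 after IL-6. The part of epithelial cells was not tested either.

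Ratios to Ltf, the granule gene for lactoferrin, were computed within each library. Ltf, Ngp and Camp, the granule genes used, were chosen after their values were seen. Lcn2 was at 0.607 to 0.666 times Ltf in control, 0.450 to 0.843 after IL-4 and 0.601 to 0.685 after IL-6, and the 3 conditions overlapped. Hp was at 0.152 to 0.166 times Ltf in control and 0.0714 to 0.181 after IL-4, which overlapped, and at 0.610 to 0.811 after IL-6, above both. Slpi was at 0.0774 to 0.0985 times Ltf in control and 0.172 to 0.246 after IL-6, and its IL-4 range, 0.0701 to 0.194, overlapped each. Ratios to another granule gene, Camp, put Lcn2 at 0.826 to 0.915 in control, 1.56 to 1.98 after IL-4 and 1.16 to 1.38 after IL-6, with no overlap. Hp was at 0.206 to 0.229 times Camp in control, 0.248 to 0.425 after IL-4 and at higher ratios up to 1.63 after IL-6, and Slpi at 0.103 to 0.132, 0.243 to 0.456 and 0.338 to 0.494. Relative to Ngp, Lcn2 was at 0.169 to 0.183 in control, 0.12 to 0.311 after IL-4 and 0.179 to 0.2 after IL-6. With Camp, every IL-4 library thus lay above every control library for all 3 genes. With Ltf and with Ngp, the control and IL-4 ranges overlapped for all 3, so the ratios depended on the granule gene chosen.

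**Figure D4:**
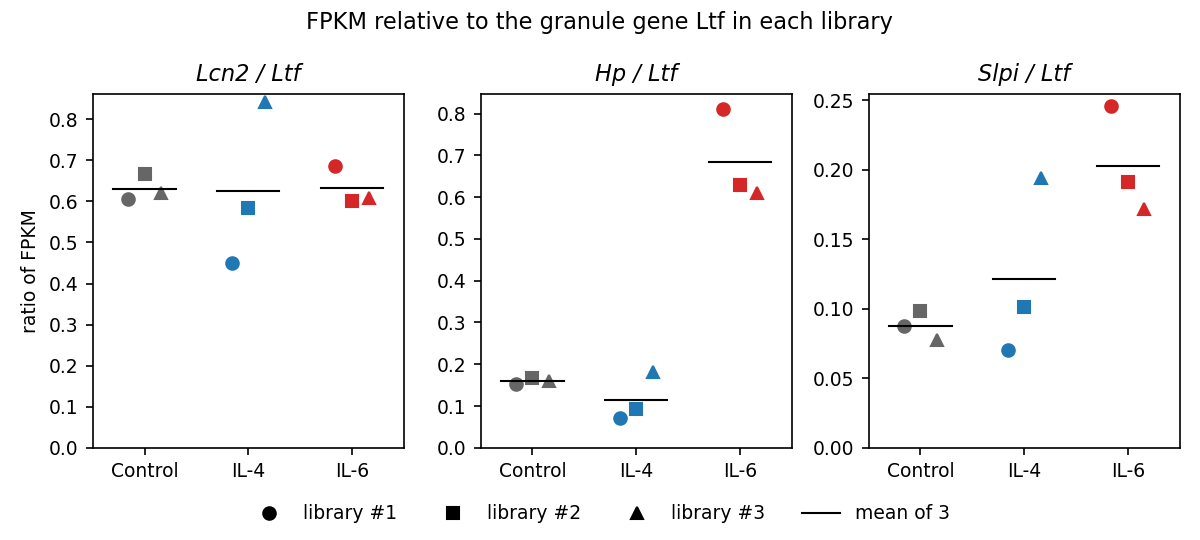
Ratio of the FPKM of Lcn2, Hp and Slpi to that of Ltf in each library, on a linear axis from 0, with the marker shape giving the library number and the line the mean of 3 libraries. Lcn2 has about the same ratio in control and IL-6-treated Mϕs, from 0.601 to 0.685, while every IL-6 library lies above every control library for Hp and Slpi.

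The genes with the most similar pattern over the 9 libraries were found by Pearson's r of log2(FPKM + 0.1), a description over libraries that share 3 conditions. For Hp they were Fpr1 (0.996), F11r (0.994) and Fpr2 (0.994), so that both formyl peptide receptors were near it. For Cp they were Pou2f2 (0.997), P3h3 (0.997) and Tmem176b (0.997), and Pou2f2 had means of 9.09, 0.390 and 9.23 FPKM without cytokine, with IL-4 and with IL-6. For Lcn2 they were Rab34 (0.992), Grina (0.992) and Mcemp1 (0.991), for Slpi Plcl2 (0.992), Hp (0.991) and Naprt (0.991), and for Saa3 Htra1, Fscn1 and Traf1 (0.985 to 0.986). Among the members, Hp and Slpi were most alike (0.991) and Cp and Saa3 least (0.392).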

How the data were processed

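The authors aligned reads of a stranded polyadenylated RNA library kit with STAR 2.4.2a to GRCm38 and, per their methods, computed FPKM with Cufflinks 2.2.1 and GENCODE M5. The deposited table holds FPKM of 53379 genes in 9 libraries. Of its gene identifiers, 94.8% matched GENCODE M21 with version, from which symbols, coordinates and exon lengths were taken. Of 183346 values above 0, 100.0% were whole fragments within 0.05 over the M21 exon length, so fragments were read back, and the program behind the table is not settled.

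Genes whose FPKM averaged 0.5 or more over the libraries, 12824 in all, were fitted on the log2(FPKM + 0.1) scale in R 4.3.3 with limma 3.58.1 over all 3 conditions, with trended, robust moderation and Benjamini-Hochberg adjustment over all genes. Adjusted p-values are two-sided limma values. Folds are ratios of mean FPKM, and errors of means are SD over 3 libraries. Paneth and goblet transcripts above or below a sum of 1 FPKM defined the sets of libraries. The fit was tested on simulated data. Tables came from pandas 2.3.3 and numpy 2.4.6 under Python 3.11.15, and plots from matplotlib 3.10.9.

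The members and gene lists were chosen with earlier results of these data known. Named from each list were up to 4 called genes with the largest change in each comparison, all receptors and partners, and the 3 genes most like each member. The table's columns carry the numbers m1 to m3 in each condition and the study names 3 mice, so the numbers were read as the same mice, which no label states outright. Deviations from group means of same-numbered libraries correlated at 0.521, −0.415 and 0.0777 for IL-4 with control, at 0.408, 0.201 and 0.166 for IL-6 with control, and at 0.281, −0.0612 and 0.153 across the cytokines (Pearson's r for numbers 1, 2 and 3), so the values do not all show a pairing. The alternatives were another pseudocount (1 or 0.01), another filter (none, or FPKM averaging 5 or more), median-ratio rescaling, quantile normalization, a fit of the compared conditions alone, the number as a block, no moderation, the adjusted p alone, voom on the fragments, the set as a term, each library left out and, added after seeing the data, removal of the trend on gene length.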

Additional observations from a re-analysis of the deposited data

How the results depend on the processing

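Of 327 results for the 5 members under the alternatives, 312 kept their direction and their side of the threshold, 13 lost a call, 1 gained a call and 1 reversed. The reversal was Saa3 for IL-4 against control, from 1.12 to −1.69 when the fit included the set of libraries. That term left 1 member called for IL-6 against control in place of 3, and 1111 and 187 genes called for IL-4 and IL-6 against control in place of 1784 and 690. Over the fixed gene lists it left 21 calls for IL-4 and 10 for IL-6. The cause was not tested. The term estimates the IL-4 change from IL-4 #1 alone against the control libraries, and the IL-6 change through the IL-4 libraries alone. A mean FPKM of at least 5, under which Cp was not tested and fewer genes were fitted, gave 847 genes for IL-4, 306 for IL-6 and 1219 between the cytokines. The adjusted p alone gave 3186, 1077 and 4375. With 1 library left out, between 394 (without control #3) and 1009 (without IL-4 #3) genes were called for IL-6 against control. Median-ratio rescaling moved the median of all genes for IL-4 from −0.20 to −0.01 and the calls from 644 higher and 1140 lower to 834 and 874.

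With the library number as a replicate block, 1788, 656 and 2734 genes were called for IL-4, IL-6 and IL-6 against IL-4, where 1784, 690 and 2613 were called without it. The block changed no call of a member, and among genes of the lists other than cell type markers it ended those of Reg3b (adjusted p = 0.052) and Mpo (adjusted p = 0.0587) for IL-4 (limma). Low counts limit Cp after IL-4 and Saa3 in control and IL-4 #1, which rest on 15 to 75 fragments.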
